A study of Mus musculus with 2 samples.

Results

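TRIM and RNF genes encode many of the RING-type ubiquitin ligases that are named in a numbered series. They were taken by symbol, as the genes whose name begins with Trim or Rnf and then a digit, apart from 1 TRIM gene that the rule leaves out. These were 100 gene entries of 11349 listed, 37 TRIM entries and 63 RNF entries. The symbol rule itself uses no expression value. Rnf26 has 2 entries whose exons overlap, so the RNF entries stand for 62 symbols. In the GENCODE M21 annotation the same pattern takes 67 protein-coding TRIM symbols and 85 RNF symbols, of which 30 and 23 were not analysed here. Each listed gene reached at least 0.501 FPKM in 1 of the libraries, so members that are nearly silent in macrophages stand outside the comparison.

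Ubiquitin is a small protein that is activated by an E1 enzyme, passed to an E2 conjugating enzyme and placed on a target by an E3 ligase. A RING finger is the E3 part that holds the loaded E2, and the shape of the ubiquitin chain decides whether the target is degraded by the proteasome or takes part in signalling. TRIM proteins follow the RING with B-box zinc fingers and a coiled coil, and many of them are induced by interferon and act on viral RNA and DNA sensing. The RNF series gathers RING proteins of unrelated build, among them membrane ligases of the endoplasmic reticulum and endosomes, histone ligases, and the RING-between-RING (RBR) ligases, which carry ubiquitin on a cysteine of their own. A few members, such as Trim14 and Trim44, lack the RING, so the family name does not make each one a ligase.

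Both libraries came from primary mouse macrophages of the abdominal cavity that had TGF-β1, a growth factor of repair and scarring, for 24 h. The groups were wild-type (WT) cells, whose column is headed C57, and cells titled TREM-2-/-, a knockout of the macrophage lipid receptor Trem2 whose genotype label reads knockdown. There was 1 library per group, so no difference below has a replicate check, and all values describe these 2 libraries. The stated aim is to find genes that differ with the loss of Trem2 in macrophages. The labels used here give no age, sex or number of animals, no untreated cells and no allele of the knockout.

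Trem2 was at 135 FPKM in WT cells and 13.7 FPKM in knockout cells, 9.91-fold lower. FPKM are fragment numbers scaled for gene length and library size, so levels of different genes can be set side by side. Depth was estimated from the steps between low values at 13.5 M fragments for WT cells and 12.4 M for knockout cells. All 8 macrophage markers were listed, and their summed level was 9516 FPKM in WT cells and 12007 FPKM in knockout cells. Of 8 fibroblast markers all 8 were listed, with sums of 237 FPKM in WT cells and 408 FPKM in knockout cells. Sums in WT and knockout were 158 and 86.5 FPKM over 2 of 8 T and NK cell markers, 35.0 and 20.3 FPKM over 4 of 8 neutrophil markers, 16.0 and 4.39 FPKM over 6 of 7 mesothelial and epithelial markers, and 9.59 and 10.6 FPKM over 3 of 6 B cell markers. Single markers went both ways within these sums. Among macrophage markers 5 were higher and 3 lower in the knockout, the sum rests mostly on Lyz2 (7962 and 10170 FPKM), and the lower ones were Itgam (92.7 and 41.2 FPKM), Mertk (16.6 and 8.18 FPKM) and Cd14 (77.8 and 50.1 FPKM). Among fibroblast markers 6 were higher, led by Col1a1 (48.1 and 171 FPKM) and Col1a2 (50.6 and 108 FPKM), and 2 lower, Pdgfra (29.3 FPKM in WT cells and 4.88-fold lower) and Dcn (71.4 and 48.9 FPKM). Il7r made up nearly all of the T and NK cell sum (158 and 84.7 FPKM), while Lck was at 0.846 and 1.76 FPKM. All 6 listed mesothelial and epithelial markers were lower. The defining markers Cd3e, Cd3g, Cd4, Cd8a, Ms4a1, Ly6g and Epcam were not listed. The part of other cells in the values below was not tested, and in a bulk library fewer cells of a type and less RNA per cell cannot be told apart.

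As a family, TRIM genes were expressed at a lower level than RNF genes in both libraries. A mean level of at least 1 FPKM across the libraries was reached by 30 of 37 TRIM entries and 56 of 63 RNF entries. The median level of those TRIM genes was 5.11 FPKM in WT cells and 3.97 FPKM in knockout cells, and that of the RNF genes was 9.42 and 6.93 FPKM. Summed over all listed members, TRIM genes held 256 FPKM in WT cells and 176 FPKM in knockout cells, and RNF genes 1264 and 1139 FPKM. Much of the RNF sum came from 3 membrane ligases, Rnf149 (261 and 168 FPKM), Rnf130 (237 and 274 FPKM) and Rnf128 (111 and 83.2 FPKM). Among the TRIM genes analysed here those with the highest mean were Trim25, Trim8, Trim35, Trim28, Trim41 and Trim44.

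**Figure D1:**
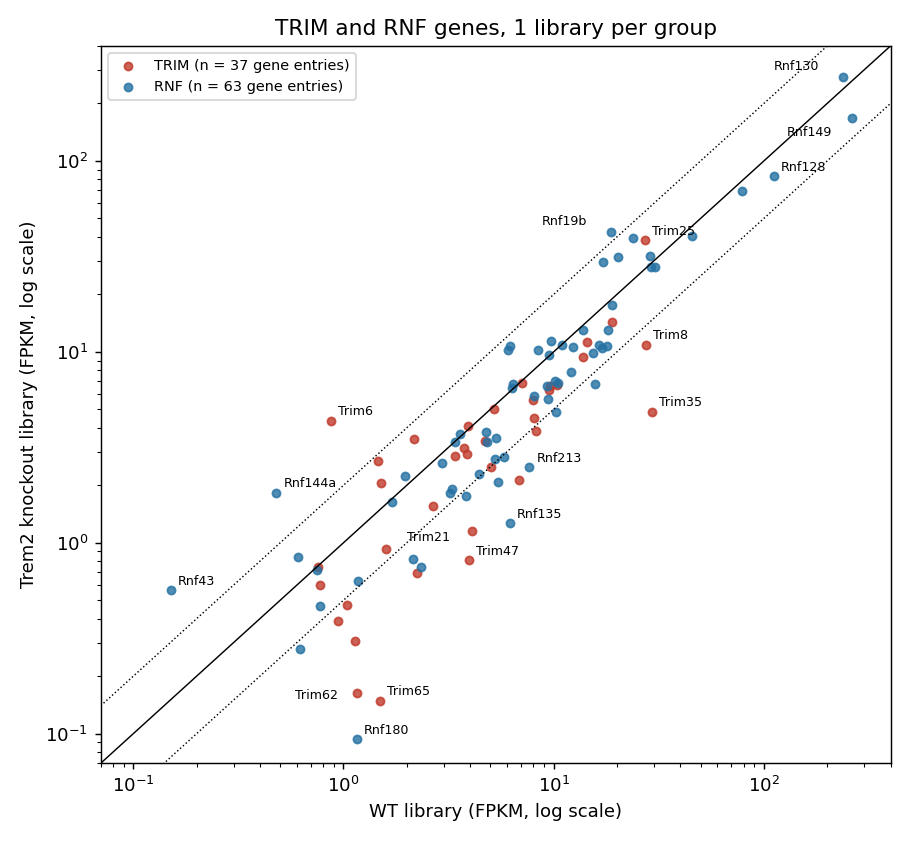
Level of each TRIM entry (red) and RNF entry (blue) in the WT library (x axis, FPKM, log scale) and the Trem2 knockout library (y axis, FPKM, log scale); the solid line marks equal levels and the dotted lines 2-fold differences of plain FPKM. Most points lie below the solid line, Rnf130, Rnf149 and Rnf128 stand at the top right, Trim35 lies below the lower line at 29.3 and 4.84 FPKM, and Trim6 and Rnf144a lie above the upper line.

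Most members had a lower FPKM in the knockout library, and the medians of the 2 families differed little. On the scale of log2((knockout FPKM + 1)/(WT FPKM + 1)), which understates differences of low genes, the median over 30 TRIM genes was -0.43, with 24 below 0 and 6 above. Over 56 RNF genes the median was -0.34, with 40 below 0 and 16 above. Over all 9962 genes at a mean of 1 FPKM or more it was -0.31, and 6791 of them (68.2%) lay below 0, so both families sat close to the whole table, with 80.0% of TRIM genes and 71.4% of RNF genes below 0. The TRIM median lay -0.09 from the RNF median, a small distance beside the SD over genes of 0.73 in TRIM and 0.57 in RNF. TRIM genes ranged from -2.37 to 1.51 and RNF genes from -1.66 to 1.14.

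A 2-fold difference or more on the same scale was reached by 11 of the 86 members that passed a mean of 1 FPKM. Among TRIM genes 5 were lower in the knockout (Trim35, Trim47, Trim30d, Trim8 and Trim21), which is 16.7% where the share over all genes was 13.7%. Trim6 was higher, 1 gene or 3.33% where the share over all genes was 3.48%. Among RNF genes 4 were lower (Rnf135, Rnf213, Rnf6 and Rnf144b), 7.14% against the same 13.7%, and 1 was higher (Rnf19b), 1.79% against 3.48%. As deposited, these shares do not set either family apart from other genes upward, and downward TRIM stood near the background and RNF under it. Setting the median of the ratios between the libraries to 1 moved the median of all genes from -0.31 to -0.04, a shift of 0.26. On that scale the lower genes were 4 of the 30 TRIM and 2 of the 56 RNF genes, where the background was 7.75%. Higher genes were 1 TRIM (Trim6) and 4 RNF (Rnf19b, Rnf144a, Rnf2 and Rnf181), where it was 7.23%. How near the lower TRIM genes lie to the background thus depends on the scale, and on the scales given here rests on 4 or 5 genes. The TRIM median became -0.18 and the RNF median -0.05.

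Taken from the estimated fragments, counting error was small for most members. The counting intervals printed with the ratios of plain FPKM are 95% intervals by the exact Clopper-Pearson method, from the estimated fragments, and include no other source of error. Of 27 TRIM genes with an interval, 20 lay wholly below a ratio of 1, 4 above it and 3 held it. Of 53 RNF genes, 31 lay below, 10 above and 12 held it. Over all 8668 genes with an interval 57.9% lay below and 23% above, beside 74.1% and 14.8% of the TRIM genes and 58.5% and 18.9% of the RNF genes. With the median of ratios set to 1 the TRIM genes split into 13 below, 6 above and 8 that held 1, and the RNF genes into 23, 21 and 9. Over all genes with an interval 41.0% then lay below and 37.2% above. Of the TRIM genes 48.1% lay below and 22.2% above, and of the RNF genes 43.4% and 39.6%. The 6 members without a matched gene length, among them Trim8, Rnf14 and Rnf138, have no interval.

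**Figure D2:**
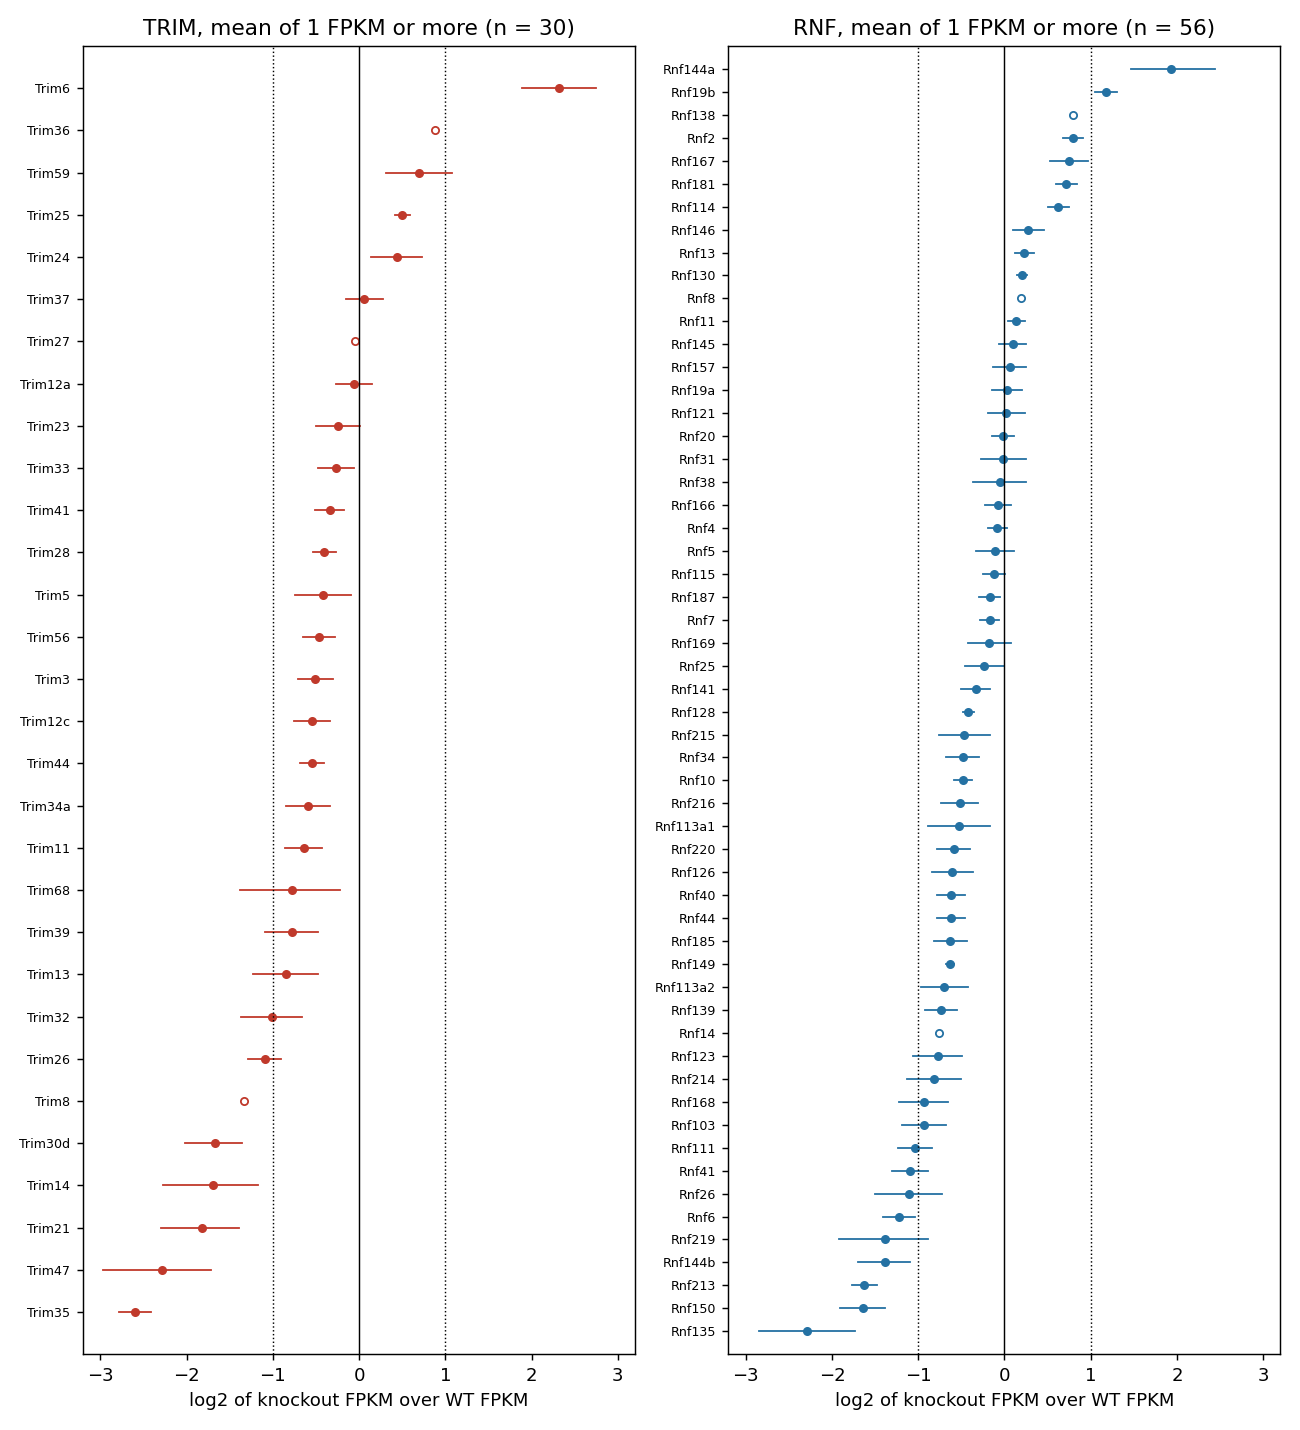
Ratio of knockout to WT FPKM on a log2 scale (x axis, no pseudocount) for each TRIM gene (left, red) and RNF gene (right, blue) with a mean of 1 FPKM or more; lines are 95% counting intervals, open circles are genes without one, and dotted lines mark 2-fold. TRIM genes run from Trim35 at 6.04-fold lower to Trim6 at 4.98-fold higher, and RNF genes from Rnf135 at 4.87-fold lower to Rnf144a at 3.82-fold higher.

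TRIM genes of antiviral and cytokine signalling held values on both sides of WT. Of 19 genes in that list 13 were listed and 11 had a mean of 1 FPKM or more, of which 2 were 2-fold lower (Trim30d and Trim21), 1 was higher (Trim6) and the median was -0.48 beside -0.31 over all genes. Of the 11, 9 lay below 0 and Trim25 and Trim6 above. The counts past 2-fold are too few to set beside shares of 13.7% and 3.48% over all genes as a trait of the list. With the median of ratios set to 1 it was -0.20, beside -0.04. Trim21, a cytosolic antibody receptor that directs antibody-coated virus to the proteasome, was at 4.09 FPKM in WT cells and 1.16 FPKM in knockout cells, 3.53-fold lower (counting interval 2.62 to 4.91). Trim30d, of the rodent Trim30 group, was at 6.80 FPKM in WT cells and 2.13 FPKM in knockout cells, 3.19-fold lower (counting interval 2.56 to 4.05). Both stood clear of equal levels by counting error, and both stayed past 2-fold with the median of ratios set to 1.

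In several of these genes the letters of an interferon-stimulated response element, the site that interferon-activated STAT and IRF factors bind, lie near the start of the gene. RefSeq promoters (GRCm38.p6, 250 bases before to 50 bases after the start) were matched for 27 of 37 TRIM symbols and 49 of 62 RNF symbols. Each was searched on both strands for GAAA, 2 bases of any kind and GAAA again, which reads TTTC, 2 bases and TTTC on the other strand. The match is shown in capitals, 5′ to 3′ on the strand of the gene, with up to 25 bases on each side. The sequences are given for the 7 TRIM genes that hold it, since they show how alike some of these promoters are.
Trim21: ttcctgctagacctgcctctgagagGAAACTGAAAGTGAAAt
Trim26: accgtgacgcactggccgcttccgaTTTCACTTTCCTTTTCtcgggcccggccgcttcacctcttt
Trim30d: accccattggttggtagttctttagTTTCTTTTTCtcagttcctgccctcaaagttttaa
Trim34a: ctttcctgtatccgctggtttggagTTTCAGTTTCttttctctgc
Trim5: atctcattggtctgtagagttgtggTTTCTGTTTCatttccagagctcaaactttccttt
Trim12a: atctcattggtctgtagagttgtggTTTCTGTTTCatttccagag
Trim12c: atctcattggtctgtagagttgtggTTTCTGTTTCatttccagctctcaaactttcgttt

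The stretches lie at chr7:102565453-102565494 (- strand, Trim21), chr17:36836961-36837026 (+, Trim26), chr7:104507856-104507915 (-, Trim30d), chr7:104244442-104244486 (+, Trim34a), chr7:104288121-104288180 (-, Trim5), chr7:104315466-104315510 (-, Trim12a) and chr7:104353344-104353403 (-, Trim12c), in GRCm38.p6. Trim21 and Trim26 each hold 2 overlapping matches. The Trim5 and Trim12a stretches are identical over the 45 bases compared, and Trim5 and Trim12c share 57 of 60 bases. Over the whole promoter Trim12c and Trim5 are 82.2% identical, so these near copies are not separate examples of the letters. The position of the match runs from 160 bases before the start in Trim26 to 29 bases after it in Trim21.

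The letters were found in 7 of 33 TRIM promoters (21.2%) and in 3 of 66 RNF promoters (4.55%), those of Rnf121, Rnf146 and Rnf20. All RefSeq promoters held them in 3.44% of cases, and those of genes at a mean of 1 FPKM or more in 3.30%. The 7 TRIM genes all belong to the antiviral list, 7 of whose 11 promoters matched (63.6%), while 0 of the 22 other TRIM promoters did. All 7 were lower in the knockout library as deposited, from Trim30d to Trim12a, with a median of -0.52 and 2 past 2-fold, and Trim12a stands above 0 once the median of ratios is set to 1. Of the 315 expressed genes with the letters in a promoter 203 were lower (64.4%) and 49 were past 2-fold lower (15.6%), with a median of -0.29, close to that of all genes. Of the 7 TRIM genes, Trim5, Trim12a and Trim12c are near copies that can share reads. A γ-activated site, TTCNNNGAA, was found in 3 TRIM promoters (9.09%), 6 RNF promoters (9.09%) and 8.30% of all promoters, and the heat-shock element letters (GAA, TTC and GAA with 2 bases of any kind between them) in none of the members and 0.603% of all promoters.

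A block of related TRIM genes on chromosome 7 held members that stood on opposite sides of WT. It runs, in mm10, from Trim6 (104218793 to 104235152) through Trim34a, Trim5, Trim12a, Trim12c and Trim30c to Trim30d (104470014 to 104507849). Trim6, which makes free ubiquitin chains that activate the kinase IKKε in human cells, was at 0.873 FPKM in WT cells and 4.35 FPKM in knockout cells, 4.98-fold higher (counting interval 3.71 to 6.69). Its neighbour Trim34a, an interferon-induced gene, was at 9.54 and 6.33 FPKM, 1.51-fold lower (counting interval 1.26 to 1.80). Trim5, Trim12a and Trim12c are mouse relatives of the primate retrovirus restriction factor TRIM5. Trim12c was at 9.62 FPKM in WT cells and 6.59 FPKM in knockout cells, 1.46-fold lower (counting interval 1.26 to 1.69). Trim5 was at 3.87 and 2.90 FPKM, and Trim12a at 5.20 and 4.99 FPKM with an interval that held a ratio of 1. Trim30c, at 0.942 and 0.388 FPKM, rested on about 21.8 and 8.26 estimated fragments.

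These near relatives can share reads, and how the authors' counting split such reads is not given in the sources used here, so the split among Trim5, Trim12a, Trim12c and the Trim30 genes is uncertain. Over the whole of chromosome 7, 11 of the TRIM genes taken by the rule were listed, and 10 of them had a lower FPKM in the knockout as deposited, where 68.5% of all listed genes did. With the median of ratios set to 1 it was 9, where 53.7% of all listed genes did. By counting error fewer stood clear of equal levels on that scale. Of the 11 counting intervals 4 lay wholly below 1 (36.4%, beside 40.9% over all listed genes), 2 lay above and 5 held 1. The other TRIM genes of chromosome 7 lie apart from the block. They are Trim21, Trim68 (1.59 and 0.929 FPKM), the NHL-repeat gene Trim3 (7.96 and 5.61 FPKM) and Trim28.

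**Figure D3:**
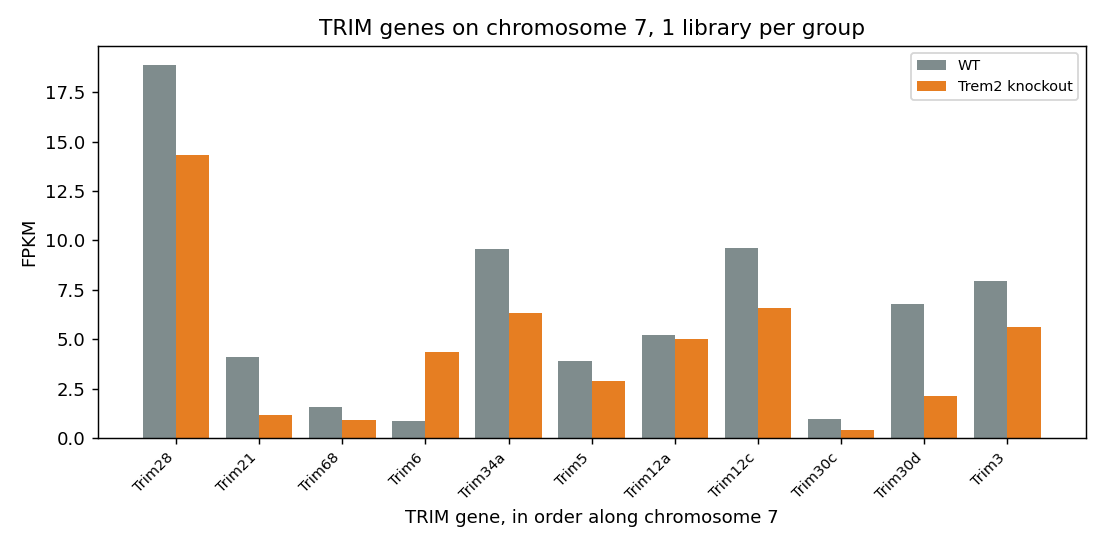
Level (y axis, FPKM, from 0) of the 11 analysed TRIM genes of chromosome 7, in their order along the chromosome (x axis), in the WT library (grey bars) and the Trem2 knockout library (orange bars). Trim6 is the gene that stands higher in the knockout, at 0.873 and 4.35 FPKM, and the neighbouring genes from Trim34a to Trim30d stand at or below their WT level.

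Trim25 and Rnf135, ligases that act on the RNA sensor RIG-I, stood in different directions. Trim25, which builds ubiquitin chains on RIG-I and is also a ligase for the ubiquitin-like protein ISG15, was at 27.2 FPKM in WT cells and 38.6 FPKM in knockout cells, 1.42-fold higher (counting interval 1.34 to 1.5). Rnf135, also called Riplet, another ligase of RIG-I, was at 6.17 FPKM in WT cells and 1.27 FPKM in knockout cells, 4.87-fold lower (counting interval 3.33 to 7.18). Trim14, an adaptor at the mitochondrial signalling platform that RIG-I reaches, was at 2.24 and 0.694 FPKM, 3.23-fold lower (counting interval 2.25 to 4.83), which is -0.94 on the log2(FPKM + 1) scale and so not counted as 2-fold. Of its 4338 exon bases 1356 overlap those of Nans on the opposite strand. Whether the authors' counting used strand is not given in the sources used here, so the Trim14 values are uncertain. Trim65, a ligase of the related sensor MDA5, was at 1.49 FPKM in WT cells and 0.149 FPKM in knockout cells, lower with a counting interval of 5.32-fold to 20.3-fold, and its mean lies under 1 FPKM. Trim26, which lies on chromosome 17 and has been linked to turnover of the factor IRF3, was at 8.24 and 3.86 FPKM, 2.13-fold lower (counting interval 1.87 to 2.44). Trim56, a ligase tied to STING and TLR3 signalling, was at 4.69 and 3.41 FPKM, 1.38-fold lower (counting interval 1.21 to 1.57).

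Among members with a mean of at least 1 FPKM the widest gap on the log2(FPKM + 1) scale belonged to Trim35, which is outside the antiviral list. Trim35 (chromosome 14, 66297031 to 66311424, + strand, mm10), once called Hls5 for a blood lineage switch, was at 29.3 FPKM in WT cells and 4.84 FPKM in knockout cells, 6.04-fold lower (counting interval 5.32 to 6.88). Among the 37 TRIM entries analysed here it had the highest level in WT and ranked 12 in the knockout. Trim8, which binds the cytokine signalling inhibitor SOCS1, was at 27.4 and 10.9 FPKM, 2.51-fold lower. Trim47 was at 3.96 FPKM in WT cells and 0.810 FPKM in knockout cells, 4.88-fold lower (counting interval 3.29 to 7.81). Trim47 and Trim65 are neighbours on chromosome 11 that share 225 exon bases of the same strand, 8.23% of the exons of Trim47, so their low values are not fully separate measurements. Of the 16 genes in the list of other TRIMs 11 had a mean of 1 FPKM or more, with 3 lower by 2-fold (2 with the median of ratios set to 1), 0 higher and a median of -0.50. Over all genes the median was -0.31, with 13.7% lower and 3.48% higher. With the median of ratios set to 1 the list median was -0.25, beside -0.04 over all genes, of which 7.75% were lower and 7.23% higher.

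The remaining TRIM groups showed smaller gaps. The TIF1 genes, corepressors with a PHD finger and a bromodomain, had a median of -0.20 over 3 genes and 0 past 2-fold. Trim28 (KAP1), which silences retroelements with KRAB zinc finger proteins, was at 18.9 and 14.3 FPKM. Trim33, which binds the TGF-β mediators SMAD2 and SMAD3, was at 3.40 and 2.83 FPKM, lower as deposited and higher with the median of ratios set to 1. Trim24 was at 1.51 FPKM in WT cells and 2.05 FPKM in knockout cells, 1.36-fold higher (counting interval 1.10 to 1.66). Both NHL-repeat genes were lower in the knockout, with Trim32 at 5.02 and 2.49 FPKM and Trim3 as given above. Of the membrane-anchored pair, Trim13 of the endoplasmic reticulum was at 8.09 and 4.48 FPKM and Trim59 at 2.17 and 3.51 FPKM, on opposite sides of WT. Trim36, a microtubule-binding TRIM, was at 1.45 and 2.68 FPKM. Trim41 (14.3 and 11.3 FPKM), Trim44 (13.8 and 9.43 FPKM), Trim11 (10.4 and 6.68 FPKM) and Trim39 (2.68 and 1.56 FPKM) were all lower in the knockout. Trim27 (7.07 and 6.86 FPKM), Trim23 (3.73 and 3.15 FPKM) and Trim37 (3.90 and 4.08 FPKM), a gene of centriole and peroxisome control, lay near equal levels.

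Among RNF ligases of innate immunity 10 of 11 genes in the list had a mean of 1 FPKM or more, 2 of them were 2-fold lower (Rnf135 and Rnf213), 0 were higher and the median was -0.26. Over all genes the median was -0.31, with 13.7% lower and 3.48% higher. With the median of ratios set to 1 the counts past 2-fold stayed at 2 and 0. The list median was then 0.03, beside -0.04 over all genes, and 4 of the 9 genes below 0 moved above it. Rnf213, a giant ATPase and ligase that coats intracellular bacteria and is the susceptibility gene of moyamoya disease, was at 7.65 FPKM in WT cells and 2.49 FPKM in knockout cells, 3.08-fold lower (counting interval 2.79 to 3.40). The others had closer levels. Rnf114 was at 20.3 and 31.3 FPKM, the one gene of the list with a higher FPKM in the knockout as deposited, by 1.54-fold (counting interval 1.42 to 1.68). Rnf115 (30.3 and 27.9 FPKM), Rnf166 (29.2 and 27.7 FPKM) and Rnf5 (19.0 and 17.6 FPKM) had intervals that reached or held 1. Rnf34 was at 9.25 and 6.63 FPKM. Rnf26, a membrane ligase of STING, was at 3.81 and 1.77 FPKM in its main entry and 0.619 and 0.277 FPKM in the second, and these entries share 2059 exon bases, so how reads were divided between them is uncertain.

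The RBR ligases held genes on both sides of WT, with 1 of 7 lower by 2-fold, 1 higher and a median of -0.01. With the median of ratios set to 1 these were 0 lower, 2 higher (Rnf19b and Rnf144a) and 0.24, and 1 or 2 genes of 7 say little beside the background shares. Rnf19b, also called NKLAM, a ligase of macrophage phagosomes and natural killer cell granules, was at 18.7 FPKM in WT cells and 42.2 FPKM in knockout cells, 2.26-fold higher (counting interval 2.07 to 2.48). Its close relative Rnf19a was at 9.47 and 9.68 FPKM, with an interval that held a ratio of 1. Rnf144a and Rnf144b, a pair of relatives tied to DNA damage and cell death, stood on opposite sides. Rnf144a was at 0.478 FPKM in WT cells and 1.83 FPKM in knockout cells, 3.82-fold higher (counting interval 2.76 to 5.42), or 0.94 on the log2(FPKM + 1) scale. Rnf144b was at 5.44 and 2.08 FPKM, 2.62-fold lower (counting interval 2.14 to 3.24).

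Rnf31, also called HOIP, the catalytic part of the complex that makes linear ubiquitin chains, was at 3.41 FPKM in WT cells and 3.37 FPKM in knockout cells. Rnf216, which acts on Toll-like receptors, was at 4.84 and 3.38 FPKM, and Rnf14 was at 18.0 and 10.7 FPKM. Of 8 partners, editors and readers of linear chains 0 passed 2-fold in either direction on the log2(FPKM + 1) scale, with a median of -0.30. On plain FPKM Spata2 was 2.24-fold lower (counting interval 1.83 to 2.75). The 4 with the largest gaps were Spata2 (5.40 and 2.41 FPKM), the HOIP partner Rbck1 (12.3 and 6.26 FPKM), Tnip1 (28.4 and 41.5 FPKM) and the linear chain deubiquitinase Otulin (32.8 and 22.8 FPKM).

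Of the RNF genes that regulate TGF-β signalling, the growth factor both cultures received, Rnf111, also called Arkadia, which removes the inhibitors SMAD7 and SnoN, was at 5.79 FPKM in WT cells and 2.82 FPKM in knockout cells, 2.05-fold lower (counting interval 1.79 to 2.35). Rnf11 was at 28.7 and 31.7 FPKM, 1.10-fold higher (counting interval 1.03 to 1.18).

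On the log2(FPKM + 1) scale the 9 chromatin and DNA repair ligases, Rnf111 among them, had a median of -0.08 and 0 past 2-fold as deposited. With the median of ratios set to 1, 1 was higher. That gene was Rnf2 (RING1B), which places ubiquitin on histone H2A in Polycomb complex 1, at 17.2 FPKM in WT cells and 29.7 FPKM in knockout cells, 1.73-fold higher (counting interval 1.59 to 1.88). Rnf138, an end-resection ligase, was at 6.18 and 10.7 FPKM. Rnf20 and Rnf40, which act together on histone H2B, differed from each other, with Rnf20 at 10.9 and 10.8 FPKM and Rnf40 at 10.5 and 6.83 FPKM. Rnf168, which extends ubiquitin chains beside DNA breaks, was at 5.27 and 2.76 FPKM, 1.91-fold lower (counting interval 1.57 to 2.33), while Rnf8, which acts before it, was at 1.97 and 2.25 FPKM. Rnf4 (13.8 and 13.0 FPKM) and Rnf169 (2.94 and 2.61 FPKM) had intervals that held 1.

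Membrane ligases of the protease-associated group held the highest levels in either family. Of 6 with a mean of 1 FPKM or more 0 passed 2-fold on the log2(FPKM + 1) scale, though Rnf150 did on plain FPKM, and the median was -0.10. Rnf130 (Goliath) was 1.15-fold higher (counting interval 1.11 to 1.20) and Rnf149 was 1.55-fold lower (counting interval 1.5 to 1.60), so the most abundant member was Rnf149 in WT and Rnf130 in the knockout. Rnf149 shares 707 of its 2838 exon bases with the transcript Gm15832 on the same strand, so how reads were divided between them is uncertain. Rnf128 (GRAIL), known for holding T cells in a non-responding state, was 1.34-fold lower (counting interval 1.28 to 1.39). Rnf167 of lysosomes was at 6.05 and 10.2 FPKM, 1.68-fold higher (counting interval 1.45 to 1.96), Rnf13 was at 9.66 and 11.3 FPKM, and Rnf150 at 2.33 and 0.748 FPKM, 3.12-fold lower (counting interval 2.61 to 3.75).

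Ligases of the endoplasmic reticulum membrane had a median of -0.58 over 7 entries and 0 past 2-fold on the log2(FPKM + 1) scale. Over all genes the median was -0.31. With the median of ratios set to 1 the list median was -0.29, beside -0.04 over all genes. Without the filter on low values the list median was -0.43 over 10 genes as deposited. On plain FPKM the main entry of Rnf26 was 2.16-fold lower. Rnf139 and Rnf145, which both take part in the sterol-driven breakdown of HMG-CoA reductase, differed, at 9.36 and 5.63 FPKM for Rnf139 and 6.38 and 6.81 FPKM for Rnf145. Rnf185 was at 15.3 and 9.88 FPKM and Rnf103 at 4.41 and 2.30 FPKM. Rnf121 was at 6.36 and 6.44 FPKM. Exons of Rnf139 overlap those of Tatdn1 on the opposite strand over 1140 bases, and whether the authors' counting used strand is not given in the sources used here.

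Among RNF genes outside these lists Rnf6 was at 15.7 FPKM in WT cells and 6.76 FPKM in knockout cells, 2.32-fold lower (counting interval 2.05 to 2.65). Rnf7, a RING subunit of cullin ligases, was at 78.3 and 69.5 FPKM, and Rnf187 at 45.6 and 40.5 FPKM, both lower as deposited and higher with the median of ratios set to 1. Rnf181 was at 23.9 and 39.2 FPKM, 1.64-fold higher (counting interval 1.51 to 1.79). Rnf41 (10.3 and 4.82 FPKM) and Rnf219 (2.14 and 0.820 FPKM), named after their values were seen, were lower by more than 2-fold on plain FPKM. Rnf146, at 8.46 and 10.3 FPKM, shares 3129 of its 4456 exon bases with Echdc1 on the opposite strand.

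**Figure D4:**
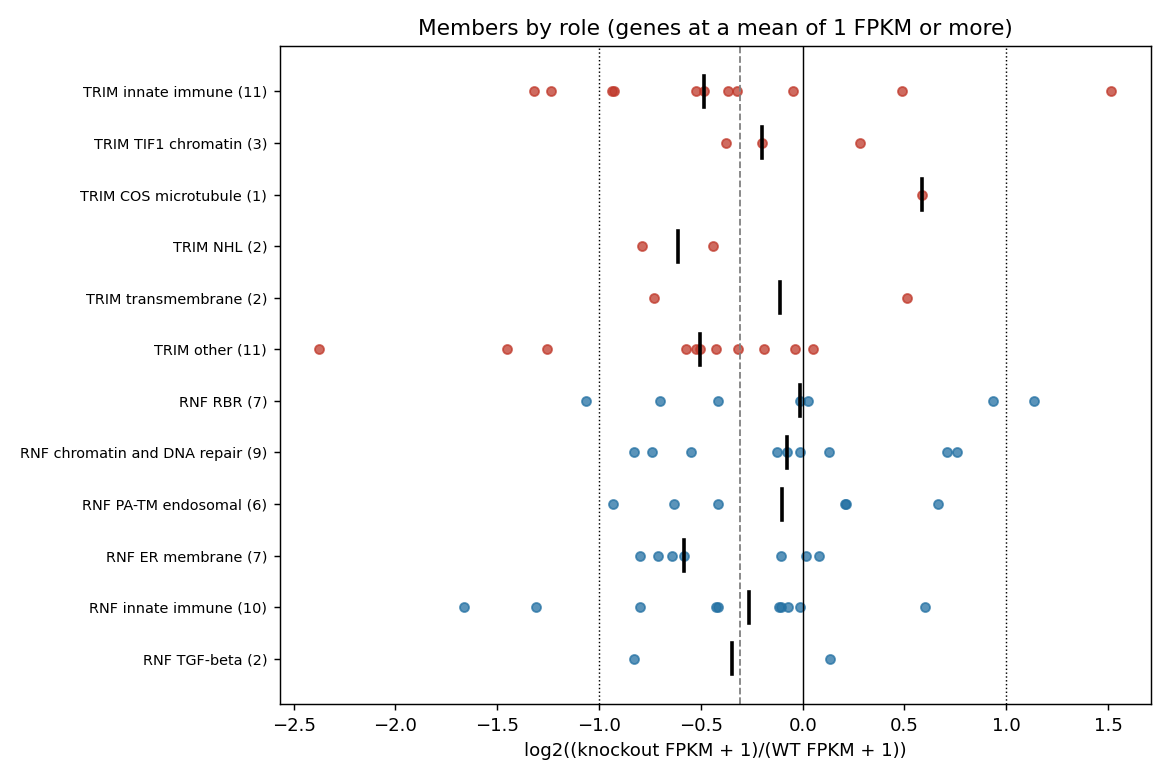
Log2((knockout FPKM + 1)/(WT FPKM + 1)) of members at 1 FPKM or more on average (points) by role list, with the number of genes in parentheses, the median of each list as a black bar, the median of all genes, -0.31, as a dashed line and 2-fold as dotted lines. The antiviral TRIM list and the RBR list hold points on both sides, from -1.32 to 1.51 and from -1.07 to 1.14, and the other TRIM list reaches -2.37 at Trim35.

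The 14 members with a mean under 1 FPKM had little depth and enter no count past 2-fold. All 7 TRIM entries had a lower FPKM in the knockout, where 71.0% of all genes under that mean did. Among them were Trim30c, given above, Trim62 (1.16 and 0.162 FPKM), Trim16 (1.14 and 0.307 FPKM), Trim46 (1.04 and 0.473 FPKM) and Trim45 (0.776 and 0.601 FPKM), while Trim29, at 0.754 and 0.748 FPKM, had an interval that held 1. Of the 7 RNF entries, Rnf180 was at 1.16 and 0.0936 FPKM, the latter from about 6.48 estimated fragments, 12.4-fold lower (counting interval 5.89 to 37.4). Rnf43, which removes Wnt receptors from the cell surface, was at 0.151 and 0.564 FPKM, 3.73-fold higher (counting interval 2.04 to 7.75). Rnf217 was at 1.17 and 0.630 FPKM, Rnf170 at 0.776 and 0.468 FPKM, Rnf122 at 0.604 and 0.842 FPKM and Rnf24 at 0.745 and 0.724 FPKM.

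The E2 enzymes that feed these ligases were measured beside them. Of 29 E2 genes 27 had a mean of 1 FPKM or more, 3 were lower (2 with the median of ratios set to 1), 1 was higher and the median was -0.32. Over all genes 13.7% were lower and 3.48% higher, with a median of -0.31. With the median of ratios set to 1 these shares were 7.75% and 7.23%. So few E2 genes past 2-fold do not set the list apart from other genes. Ube2l6, the E2 that works with ISG15, was at 18.0 and 3.87 FPKM, Ube2e3 at 12.8 and 2.84 FPKM and Ube2v2 at 7.12 and 2.61 FPKM, and the higher one was Ube2g2, an E2 of the endoplasmic reticulum, at 11.9 and 31.7 FPKM. Of 27 RING ligases under other names 1 was lower, Siah1a, at 11.3 and 2.21 FPKM, 0 were higher and the median was -0.27, beside 13.7% lower and 3.48% higher over all genes. With the median of ratios set to 1, 1 was lower and 2 were higher, Mdm4 (3.01 and 6.33 FPKM) and March5 (33.6 and 56.2 FPKM), the latter named after its values were seen.

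Sensors and adaptors that these ligases modify held genes on both sides of WT. Of 11 nucleic acid sensing genes 1 was lower (Tmem173, the gene of STING, at 11.3 and 4.10 FPKM), 1 was higher (Traf3, at 2.62 and 6.29 FPKM) and the median was -0.33, close to that of all genes. With the median of ratios set to 1, 0 were lower, Tmem173 being at -0.99, and 2 were higher, Traf3 and Mb21d1. Mb21d1, the gene of cGAS, was at 2.18 FPKM in WT cells and 5.25 FPKM in knockout cells, and Irf3 was at 10.6 and 5.17 FPKM. Of 10 interferon-stimulated reference genes 4 were lower, 0 were higher and the median was -0.93, with Isg15, the ubiquitin-like partner of Trim25 and Ube2l6, at 22.5 and 7.71 FPKM. For this list and the nucleic acid sensing list the shares over all genes were 13.7% lower and 3.48% higher. With the median of ratios set to 1 they were 7.75% and 7.23%. Of the 10 genes 3 had a higher FPKM in the knockout, named after their values were seen, Bst2 (125 and 217 FPKM), Rsad2 (13.1 and 16.3 FPKM) and Irf7 (8.96 and 9.28 FPKM), and Bst2 passed 2-fold with the median of ratios set to 1. None of these lists was compared with the TRIM or RNF genes by a test.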

How the data were processed

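RNA of 1 WT and 1 Trem2 knockout macrophage culture was sequenced from strand-marked (dUTP) libraries, per the labels' protocols. The authors deposited FPKM per gene in 1 column per library, per the file headers, on the build mm10 according to the submitters' processing notes. Neither the aligner nor the quantifier nor any scaling beyond FPKM is given in the sources used here. Groups came from the sample titles. The members and lists were chosen with earlier results of these data known. A TRIM gene that the symbol pattern also takes, and some genes of the other lists, are not reported here.

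Fold changes are log2((knockout FPKM + 1)/(WT FPKM + 1)) at a mean of 1 FPKM or more, counted at 2-fold. With 1 library per group no test was run. Fragments were estimated from steps between low values, taking 300 bases of step as 1 fragment. The step was searched only within a fixed window. Together the window and the 300 bases confined depth, and so the interval widths, to a range set beforehand. Of 170 WT values 70.6% and of 200 knockout values 73.5% lay within 0.1 of a step. A step fixed beforehand would give 20% by chance, but this step was estimated from low values, so its fit was not tested. The fragments give Clopper-Pearson 95% intervals for genes whose ID matched GENCODE M21 (9914 of 11349). Named members are those past 2-fold, the 6 with the highest mean in each family and members of role lists, and Rnf41, Rnf219, Rnf146, Rnf24 and Trim29 were named after their values were seen. From other lists up to 4 with the largest fold change are named. Promoter stretches are shown for the 7 TRIM genes that hold the interferon-response letters and not for the 3 RNF genes, a choice made after the values were seen. The settings varied were the pseudocount (0.1 or 5 FPKM), the filter (none or 5 FPKM), the scaling (same total, median of ratios or trimmed mean), the threshold (1.5-fold or 4-fold), the summary (mean) and the members (those outside the innate immune lists). The fold, filter and interval calculations were run on simulated fragments whose number was known. That run did not include the estimate of fragments from FPKM values, so it does not test that estimate. Scripts ran in Python 3.11.15 with pandas 2.3.3, numpy 2.4.6, scipy 1.17.1 and matplotlib 3.10.9.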

Additional observations from a re-analysis of the deposited data

How the results depend on the processing

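No paired analysis was possible because WT and knockout have 1 library each. The counts of members past 2-fold moved with the scale. Unless stated they are of 30 TRIM and 56 RNF members. Apart from the median of ratios, no share over all genes stands beside the counts at these settings. Those counts therefore do not show whether either family differs from other genes. With a pseudocount of 0.1 FPKM, TRIM lower was 7, RNF lower 9 and RNF higher 2. With 5 FPKM, TRIM lower was 2, and TRIM higher, RNF lower and RNF higher were 0. At a mean of 5 FPKM or more, which left 14 TRIM and 37 RNF members, TRIM lower was 2, TRIM higher 0 and RNF lower 2. Rescaled to the same total, TRIM lower was 7, RNF lower 6 and RNF higher 0. After scaling by the median of ratios, RNF lower was 2, RNF higher 4 and the RNF median -0.054. After scaling by the trimmed mean, these were 2, 4 and -0.052. At 1.5-fold, TRIM lower was 9, RNF lower 15 and RNF higher 7. At 4-fold, TRIM lower was 1, and TRIM higher, RNF lower and RNF higher were 0. The cause was not tested beyond the construction of each setting. The TRIM median minus the RNF median ranged from -0.33 at a mean of 5 FPKM or more to -0.07 with a pseudocount of 5 FPKM, negative under each setting run. Of the 11 members past 2-fold, 1 (Trim35) stayed so under all 5 single-gene alternatives, and 10 of the 75 others passed under at least 1. Members with few estimated fragments have wide intervals, and 1 library per group leaves variation between cultures or animals unmeasured.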
